A study of Mus musculus with 10 samples.

Results

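The genes described here are 4 of the 30460 genes listed in each library: Klhl13, its closest relative Klhl9, the other Aurora B adaptor Klhl21, and Cul3, the cullin that all 3 adaptors bind. They were listed by symbol, and the symbols were matched to the Ensembl identifiers of the files through GENCODE M21 (GRCm38). Klhl13 was chosen by its measured fall against wild type in these same libraries, so the values of the 4 genes against wild type are given as a description and without a test. All 4 passed the filter on low values, at least 0.5 FPKM in at least 2 libraries, together with 15731 genes in all. FPKM scales fragments by exon length and by library depth, a level that can be compared between genes. Klhl13 (ENSMUSG00000036782) lies on the minus strand of chromosome X from 23219271 to 23365082. Klhl9 (ENSMUSG00000070923) lies on the minus strand of chromosome 4 from 88718292 to 88722465, and Klhl21 (ENSMUSG00000073700) on the plus strand of the same chromosome from 152008803 to 152017680. Cul3 (ENSMUSG00000004364) lies on the minus strand of chromosome 1 from 80264923 to 80340480.

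CUL3 is the scaffold of a family of ubiquitin ligases. It carries the RING protein RBX1, which brings the charged ubiquitin enzyme, and it binds adaptors through their BTB domain, while the Kelch repeats of the same adaptor hold the substrate. In human cells KLHL9 and KLHL13 act together to remove Aurora B kinase from mitotic chromosomes, and KLHL21 acts on the same kinase at the anaphase spindle midzone. In mouse embryonic stem cells Klhl13 has been named among the X-linked genes that affect pluripotency factor levels and differentiation.

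The libraries came from mouse embryonic stem cells of strain C57BL/6 of 4 genotypes: Mga-/- (3 libraries), L3mbtl2-/- (2), Pcgf6-/- (2) and wild type (3). MGA, L3MBTL2 and PCGF6 are parts of PRC1.6, a Polycomb complex that represses genes, and the RNA profile of each knockout is compared here with that of wild type cells. The sources used here do not say whether libraries of one genotype came from separate clones or cultures, so the p-values rest on a spread between libraries that may be only technical. Depth was 24.0 to 24.8 M reads in Mga knockout, 23.7 and 23.0 in L3mbtl2 knockout, 23.2 and 19.4 in Pcgf6 knockout and 23.9 to 26.7 in wild type.

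The targeted genes were checked first. L3mbtl2 was at 3.60 ± 0.162 FPKM in L3mbtl2 knockout (SD, n = 2) and 20.2 ± 0.382 FPKM in wild type (SD, n = 3), and Pcgf6 at 9.69 ± 0.182 FPKM in Pcgf6 knockout and 28.9 ± 1.13 FPKM in wild type. Mga was at 8.03, 19.6 and 11.2 FPKM in the Mga knockout libraries and 18.5 ± 1.30 FPKM in wild type. The value of 19.6 FPKM, in the library labelled Mga knockout replicate 2, was at the wild type level. RNA level alone does not settle the genotype of that library, which was not tested. The 10 stem cell markers were present throughout. Their summed levels were 3406 to 3618 FPKM in Mga knockout and 3712 and 3782 FPKM in L3mbtl2 knockout. They were 4133 and 4256 FPKM in Pcgf6 knockout and 2470 to 2668 FPKM in wild type. Dppa5a gave the largest part, with a mean of 2198 FPKM in Pcgf6 knockout and 1114 FPKM in wild type. Lin28a went the other way, at 37.2 FPKM in Mga, 37.3 FPKM in L3mbtl2 and 57.7 FPKM in Pcgf6 knockout and 63.1 FPKM in wild type. Utf1 and Sall4 also had lower means in Mga knockout than in wild type. Markers of other cells moved with genotype. The summed level of 15 macrophage markers was 9.81 to 32.9 FPKM in Mga knockout, 401 and 416 FPKM in L3mbtl2 knockout, 204 and 209 FPKM in Pcgf6 knockout and 149 to 156 FPKM in wild type. Of the 13 that were tested, 12 were lower and none was higher in Mga knockout, 7 were higher in L3mbtl2 knockout and 2 were higher in Pcgf6 knockout. Over all genes tested, 16.7% were lower in Mga knockout, 23.4% higher in L3mbtl2 knockout and 5.45% higher in Pcgf6 knockout. Lyz2 gave most of the sum in L3mbtl2 knockout (310 FPKM), Pcgf6 knockout (156 FPKM) and wild type (94.4 FPKM). In Pcgf6 knockout Cd68, Adgre1 and Cd14 had lower means than in wild type, and most others had higher ones. Tyrobp, C1qa, C1qb and C1qc were each listed at 0 in at least 1 Mga knockout library. So were Ptprc, with a mean of only 0.0482 FPKM in wild type, and Aif1, which was at 0 in all of wild type. The 13 fibroblast markers summed to 411 to 853 FPKM in Mga knockout, 412 and 421 FPKM in L3mbtl2 knockout, 353 and 354 FPKM in Pcgf6 knockout and 336 to 343 FPKM in wild type. Fn1 alone had a mean of 198 FPKM in Pcgf6 knockout and 144 FPKM in wild type. The median log2 difference of the 13 in Pcgf6 knockout was -0.59, beside 0.04 for all genes. Of them 1 passed as higher and none as lower there, beside 5.45% and 4.62% of all genes. The 10 markers of differentiated cells summed to 17.1 to 26.1 FPKM in Mga knockout, 10.6 and 11.2 FPKM in L3mbtl2 knockout, 17.3 FPKM in both Pcgf6 knockout libraries and 11.1 to 11.4 FPKM in wild type. Nes and Eomes gave most of this sum in wild type (5.47 and 3.76 FPKM) and had lower means in L3mbtl2 knockout (3.98 and 2.12 FPKM). T and Pax6 had lower means there as well, and Gata4, Gata6, Sox17, Foxa2, Mesp1 and Sox1 had higher ones. A sum near that of wild type therefore does not mean that no marker differed. Of 6 sex chromosome genes, the 4 that are Y-linked were lower in Mga and in Pcgf6 knockout. Eif2s3y was at 0.140 FPKM in Mga knockout, 0.480 FPKM in Pcgf6 knockout, 12.7 FPKM in L3mbtl2 knockout and 8.87 FPKM in wild type. Ddx3y was at 0.161, 0.324, 9.66 and 3.63 FPKM in the same order. In L3mbtl2 knockout Uty also had a higher mean than in wild type, and Kdm5d a lower one. The part of these markers in the results below was not tested.

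Klhl13 RNA was far below its wild type level in all 3 knockouts, and in Mga knockout it was still near the level of its partners Klhl9 and Klhl21. It was at 8.85, 8.67 and 10.2 FPKM in the Mga knockout libraries, a mean of 9.24 ± 0.839 FPKM (SD, n = 3). The L3mbtl2 knockout libraries had 4.02 and 3.77 FPKM, a mean of 3.89 ± 0.180 FPKM (SD, n = 2). The Pcgf6 knockout libraries had 45.36 and 45.39 FPKM, a mean of 45.4 ± 0.0163 FPKM (SD, n = 2), and the wild type libraries 317, 305 and 296 FPKM, a mean of 306 ± 10.5 FPKM (SD, n = 3). No knockout library came near a wild type one, and libraries of one genotype lay close together, the library labelled Mga knockout replicate 2 included. In wild type Klhl13 ranked 124 of 15731 genes by level, so an adaptor of a ubiquitin ligase was among the most abundant transcripts of these cells. The group means were 33.1-fold lower in Mga knockout, 78.6-fold lower in L3mbtl2 knockout and 6.74-fold lower in Pcgf6 knockout than in wild type. On the log2(FPKM + 0.1) scale the differences from wild type were -5.04 ± 0.08 in Mga knockout, -6.26 ± 0.09 in L3mbtl2 knockout and -2.75 ± 0.09 in Pcgf6 knockout (SE of limma). By that difference Klhl13 ranked 4 among the falls of Mga knockout, 1 among those of L3mbtl2 knockout and 13 among those of Pcgf6 knockout. These 3 differences share the same wild type libraries and are not independent of each other. In bulk RNA, fewer cells with a transcript and less of it per cell cannot be told apart.

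**Figure D1:**
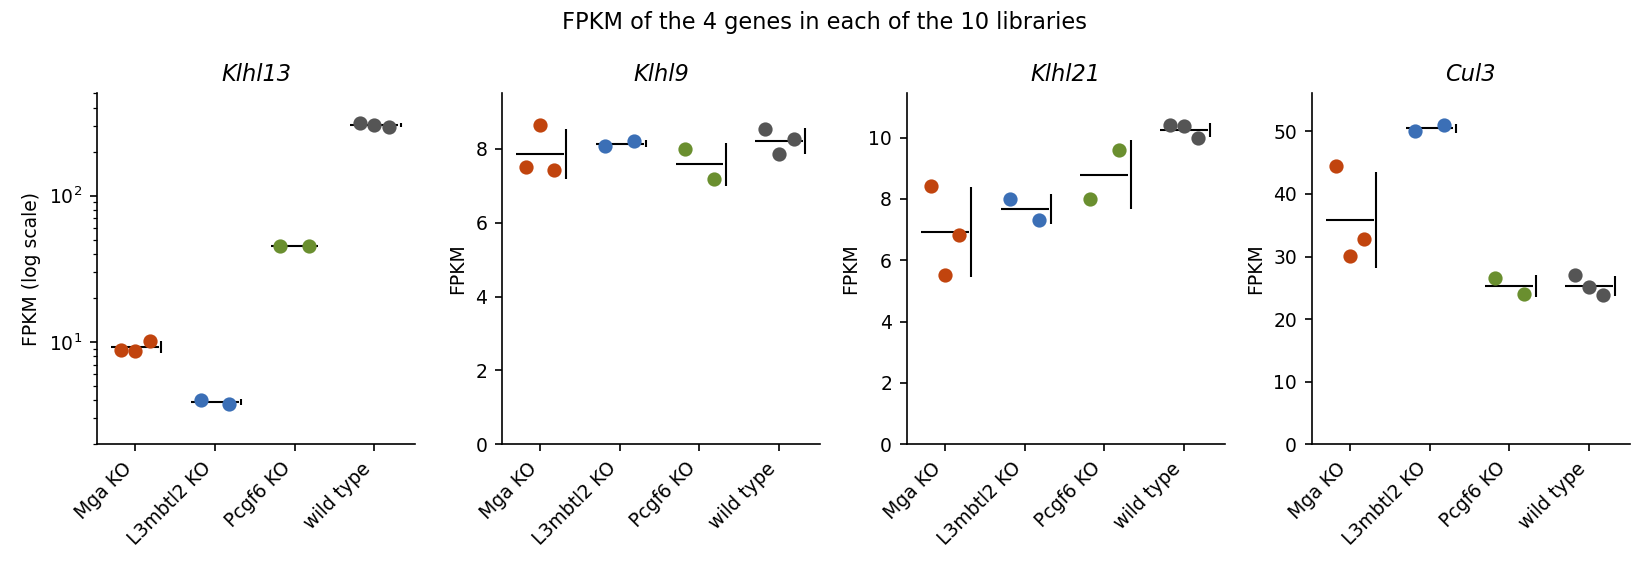
FPKM of each gene in every library (points), with the group mean (horizontal line) and SD (vertical line). The Klhl13 axis is logarithmic, the other axes start at 0. Klhl13 lay between 3.77 and 45.4 FPKM in the knockouts and between 296 and 317 FPKM in wild type, while Klhl9 stayed between 7.17 and 8.64 FPKM in all 10 libraries.

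The whole reads behind these levels could be recovered from the steps of the FPKM values. Klhl13 had 893 to 1043 reads in the Mga knockout libraries, 369 and 406 in L3mbtl2 knockout, 3739 and 4482 in Pcgf6 knockout and 32205 to 34697 in wild type. The depth therefore did not limit the order of the groups. The sources used here name no molecular identifiers, so read numbers speak of counting error only.

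The 3 knockouts differed from each other in how much Klhl13 RNA was left. The contrasts with wild type that chose the gene hold the same knockout libraries, so these tests are not independent of the choice. Mga knockout was above L3mbtl2 knockout by 1.22 ± 0.09 on the log2 scale (SE, limma, adjusted p = 6.54e-05). It was below Pcgf6 knockout, with a difference of -2.29 ± 0.09 (adjusted p = 5.92e-06). L3mbtl2 knockout was below Pcgf6 knockout as well, with a difference of -3.51 ± 0.10 (adjusted p = 1.4e-06). The order of levels was thus L3mbtl2 knockout, Mga knockout, Pcgf6 knockout and wild type from low to high, and each neighbouring pair of knockouts differed beyond its spread. When the library labelled Mga knockout replicate 2 was left out, the difference of Mga from L3mbtl2 knockout was 1.27 (adjusted p = 4.38e-05) and that of Mga from Pcgf6 knockout -2.24 (adjusted p = 3.82e-06). Over all settings tried, the adjusted p of Mga against L3mbtl2 knockout ranged from 2.28e-05 to 0.026 and that of Mga against Pcgf6 knockout from 1.32e-06 to 0.00344. Of the 4 genes, 2 passed between Mga and L3mbtl2 knockout (Klhl13 and Cul3), where 22.8% of all genes tested did. Only Klhl13 passed between Mga and Pcgf6 knockout, where 22.6% of all genes did, and Klhl13 and Cul3 passed between L3mbtl2 and Pcgf6 knockout, where 30.5% did.

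Klhl13 and Klhl9 are close relatives, so it matters whether reads of one can be counted for the other. Their longest open reading frames in GENCODE M21 are 1965 bases (Klhl13-204) and 1854 bases (Klhl9-201), and 1504 of 1842 aligned bases are identical (81.7%). Against Klhl21, with 1794 bases, the identity is 56.8% for Klhl13 and 58.3% for Klhl9. The stretch of 90 bases in which the frames of Klhl13 and Klhl9 are most alike is printed from the GENCODE transcripts to let their divergence be seen. It starts at base 895 of the Klhl13 frame and base 772 of the Klhl9 frame, and the 10 bases that differ are in capitals.
Klhl13: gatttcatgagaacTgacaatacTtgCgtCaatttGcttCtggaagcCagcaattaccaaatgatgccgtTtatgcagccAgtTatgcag
Klhl9: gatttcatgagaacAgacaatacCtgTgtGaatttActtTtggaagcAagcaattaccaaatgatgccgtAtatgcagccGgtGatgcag
Even here the differences are spread along the stretch. No run of 30 bases is found in protein-coding transcripts of both genes, and the longest shared run has 22 bases, so a read of usual length carries differences that separate the genes.

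PRC1.6 carries DNA-binding subunits, MGA with MAX and E2F6, so the 250 bases before the start sites were read for their known letters. Klhl13 has 5 such windows in RefSeq (GRCm38.p6), and the start of 1 of them, base 23365082, is the gene start of GENCODE. Its window is shown with the window of Klhl9, the relative that showed no such fall. Both are on the minus strand, written 5′ to 3′, and capitals mark GGGCGG on either strand, the GC box.
Klhl13 (chrX:23365083-23365332): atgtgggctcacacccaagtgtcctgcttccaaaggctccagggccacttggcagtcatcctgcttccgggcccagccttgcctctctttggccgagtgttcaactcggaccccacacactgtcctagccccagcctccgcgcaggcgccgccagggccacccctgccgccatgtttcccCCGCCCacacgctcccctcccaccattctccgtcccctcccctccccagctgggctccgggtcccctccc
Klhl9 (chr4:88722509-88722758): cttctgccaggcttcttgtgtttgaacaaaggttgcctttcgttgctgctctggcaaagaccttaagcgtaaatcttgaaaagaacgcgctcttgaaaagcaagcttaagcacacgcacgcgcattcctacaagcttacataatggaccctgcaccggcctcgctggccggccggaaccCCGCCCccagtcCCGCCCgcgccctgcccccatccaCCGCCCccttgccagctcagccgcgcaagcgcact
The Klhl13 window has 68.4% G and C with 12 CG pairs, the Klhl9 window 59.6% with 19. The GC box occurs 1 time in this Klhl13 window and 3 times in that of Klhl9, and 32.7% of the 32817 RefSeq windows of 250 bases hold it. The E-box CACGTG, bound by MAX dimers, was found in none of the windows of the 4 genes (6.02% of all windows hold it). Likewise GCGGGAA, an E2F site held by 3.82% of windows, and AGGTGTGA, a T-box site held by 1.12%, were found in none. All searches covered both strands, and the letters of GGGCGG and GCGGGAA can overlap. These matches describe letters only.

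The nearest tested gene to Klhl13 did not share its fall. Klhl13 lies in a gene-poor stretch in which only 1 tested gene, Wdr44, a WD repeat protein, lies within 500 kb of its ends, at 328 kb, and the same holds within 1000 kb. Wdr44 was at 3.02 ± 0.417 FPKM in Mga knockout, 3.57 ± 0.105 FPKM in L3mbtl2 knockout, 1.67 ± 0.0203 FPKM in Pcgf6 knockout and 1.55 ± 0.233 FPKM in wild type (SD). It rose by 0.92 ± 0.15 in Mga knockout (limma, adjusted p = 0.00228) and by 1.16 ± 0.17 in L3mbtl2 knockout (adjusted p = 0.00129), and its difference of 0.11 ± 0.17 in Pcgf6 knockout did not pass (adjusted p = 0.752). On the other side the nearest tested gene, the predicted gene Gm28268, is 1458 kb away, and it rose by 0.44 in Mga knockout (adjusted p = 0.0445), fell by 0.85 in L3mbtl2 knockout (adjusted p = 0.00474) and had a difference of -0.27 in Pcgf6 knockout (adjusted p = 0.36). The median of the 598 tested genes of chromosome X was 0.17 in Mga knockout, 0.16 in L3mbtl2 knockout and 0.05 in Pcgf6 knockout, as a log2 difference from wild type. None of these genes had a lower difference than Klhl13 in Mga or L3mbtl2 knockout, and 2 did in Pcgf6 knockout. The library kit does not mark strand, so overlapping genes matter. A pseudogene on the same strand, Gm14523, overlaps Klhl13 close to its start and never exceeded 0.150 FPKM, and the genes that overlap the other 3 stayed at or below 0.438 FPKM.

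The fall of Klhl13 changed the make-up of the whole adaptor family. BTB-Kelch adaptors are the largest class of CUL3 adaptors, and 45 members other than Klhl13, Klhl9 and Klhl21 are in the files. Klhl13 held 3.64 to 4.74% of the summed FPKM of all these genes in Mga knockout, 1.57 and 1.47% in L3mbtl2 knockout, 17.95 and 18.04% in Pcgf6 knockout and 60.6 to 61.7% in wild type. In wild type, then, most BTB-Kelch transcripts were Klhl13, and in no knockout were they. The summed level of the 45 other genes was 181 to 219 FPKM in Mga knockout, 236 and 237 FPKM in L3mbtl2 knockout, 191 and 189 FPKM in Pcgf6 knockout and 174 to 178 FPKM in wild type. The lowest knockout library, at 181 FPKM, was close to the highest wild type library, at 178 FPKM. The ratio of Klhl13 to Cul3, as levels in FPKM, was 0.199 to 0.311 in Mga knockout, 0.0804 and 0.0739 in L3mbtl2 knockout, 1.71 and 1.89 in Pcgf6 knockout and 11.7 to 12.4 in wild type. Klhl13 RNA thus exceeded that of its cullin in Pcgf6 knockout and wild type, and lay below it in Mga and L3mbtl2 knockout.

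**Figure D2:**
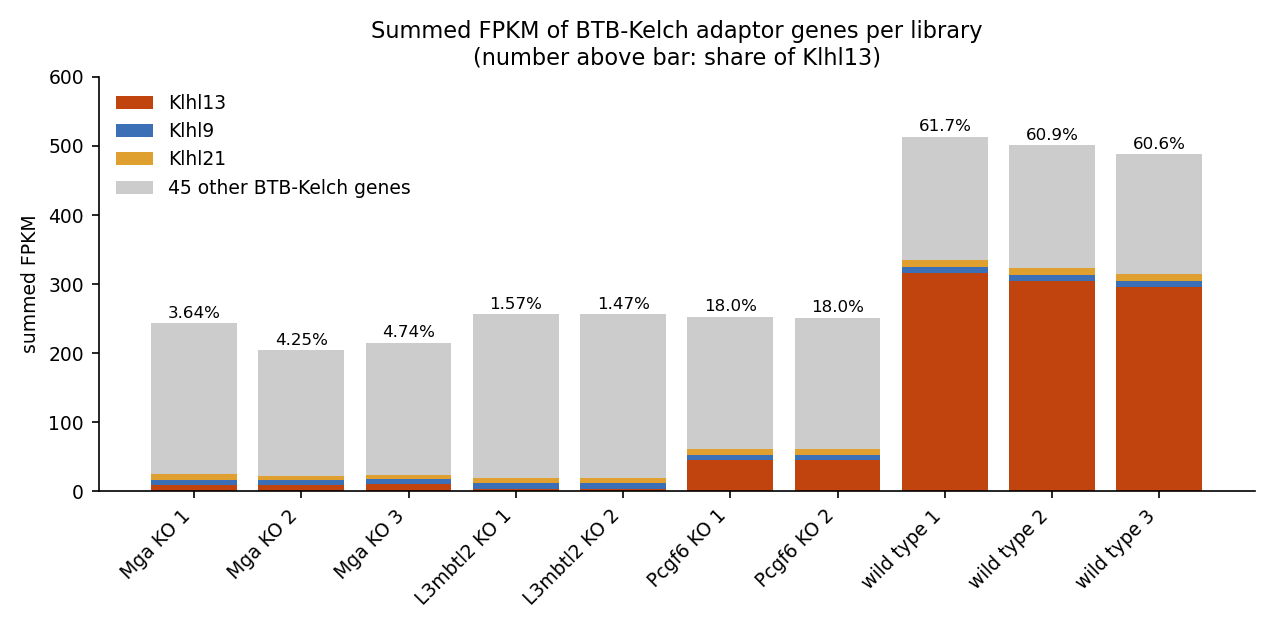
Summed FPKM of the BTB-Kelch genes in each library (bars, stacked by gene, axis from 0), with the share of Klhl13 above each bar. Klhl13 held 60.6 to 61.7% in wild type and at most 18.04% in any knockout library, while the 45 other genes together stayed between 174 and 237 FPKM.

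Klhl9, the partner of KLHL13 in the ligase that removes Aurora B, differed little from wild type. It was at 7.51, 8.64 and 7.44 FPKM in the Mga knockout libraries, 8.07 and 8.22 FPKM in L3mbtl2 knockout, 7.99 and 7.17 FPKM in Pcgf6 knockout and 8.54, 7.85 and 8.27 FPKM in wild type. Each knockout overlapped wild type. The log2 differences from wild type were -0.07 ± 0.09 in Mga knockout, -0.01 ± 0.10 in L3mbtl2 knockout and -0.12 ± 0.10 in Pcgf6 knockout (SE). None of the 3 comparisons between knockouts passed (limma, adjusted p = 0.75, 0.759 and 0.518), the widest difference being 0.10 ± 0.11 between L3mbtl2 and Pcgf6 knockout. The share of Klhl13 in the summed FPKM of both genes was 50.1 to 57.8% in Mga knockout, 33.2 and 31.4% in L3mbtl2 knockout, 85.0 and 86.4% in Pcgf6 knockout and 97.3 to 97.5% in wild type. Klhl9 was the more abundant of the pair in L3mbtl2 knockout and in no other group.

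Klhl21, the midzone adaptor, was somewhat lower in the knockouts. It was at 8.42, 5.51 and 6.84 FPKM in the Mga knockout libraries, 8.01 and 7.32 FPKM in L3mbtl2 knockout, 7.99 and 9.60 FPKM in Pcgf6 knockout and 10.4, 10.4 and 9.99 FPKM in wild type. Every knockout library was below every wild type library, and the lowest was the library labelled Mga knockout replicate 2. The log2 differences from wild type were -0.58 ± 0.15 in Mga knockout, -0.42 ± 0.17 in L3mbtl2 knockout and -0.23 ± 0.17 in Pcgf6 knockout (SE). Lower in every knockout library than in all of wild type were 20.5% of all genes tested in Mga knockout, 32.8% in L3mbtl2 knockout and 29.2% in Pcgf6 knockout, so such a pattern was common. Between knockouts Klhl21 did not pass in any comparison (limma, adjusted p = 0.518 for Mga against L3mbtl2, 0.155 for Mga against Pcgf6 and 0.45 for L3mbtl2 against Pcgf6 knockout). Without Mga knockout replicate 1 the difference of Mga from Pcgf6 knockout was -0.51 and passed (adjusted p = 0.0221). Klhl21 has 17 tested genes within 500 kb, and of these 3 were higher and 6 lower in Mga knockout, 1 higher and 8 lower in L3mbtl2 knockout, and none higher and 3 lower in Pcgf6 knockout. Over all genes tested, 22.8% were higher and 16.7% lower in Mga knockout, 23.4% were higher and 16.7% lower in L3mbtl2 knockout, while Pcgf6 knockout had 5.45% higher and 4.62% lower.

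Cul3, the scaffold, was higher in the Mga and L3mbtl2 knockouts and not in the Pcgf6 knockout. It was at 44.5, 30.2 and 32.8 FPKM in the Mga knockout libraries, 49.98 and 50.96 FPKM in L3mbtl2 knockout, 26.5 and 24.0 FPKM in Pcgf6 knockout and 27.0, 25.1 and 23.8 FPKM in wild type. The Mga and L3mbtl2 knockout libraries were all above wild type, those of the Pcgf6 knockout overlapped it, and the Mga knockout libraries were widely spread. Such a rise without overlap was seen for 28.3% of all genes tested in Mga knockout and 46.7% in L3mbtl2 knockout. The log2 differences from wild type were 0.48 ± 0.14 in Mga knockout, 0.995 ± 0.15 in L3mbtl2 knockout and -0.00 ± 0.15 in Pcgf6 knockout (SE). L3mbtl2 knockout was above Pcgf6 knockout by 0.997 ± 0.17 (limma, adjusted p = 0.00363). Mga knockout was below L3mbtl2 knockout, with a difference of -0.51 ± 0.15 (adjusted p = 0.0413), and its difference of 0.48 ± 0.15 from Pcgf6 knockout did not pass (adjusted p = 0.0507). When the library labelled Mga knockout replicate 2 was left out, the difference of Mga from L3mbtl2 knockout was -0.40 (adjusted p = 0.0543) and that of Mga from Pcgf6 knockout 0.60 (adjusted p = 0.00982). Both lay near the threshold and crossed it with the choice of libraries, with adjusted p from 0.000764 to 0.191 and from 0.00982 to 0.258 when single libraries were left out. The difference of Mga from L3mbtl2 knockout passed in 1 of these 10 fits, the one without Mga knockout replicate 1 (-0.68).

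The level of Cul3 followed that of its chromosome. The median log2 difference of the 904 tested genes of chromosome 1 was 0.30 in Mga knockout, 0.75 in L3mbtl2 knockout and 0.08 in Pcgf6 knockout, against 0.09, 0.10 and 0.04 for the genes of all other chromosomes. By library, chromosome 1 had a median of 0.57, 0.11 and 0.23 in Mga knockout, where Cul3 had 0.81, 0.25 and 0.38 on the same scale. The chromosome had 0.76 and 0.75 in L3mbtl2 knockout, where Cul3 had 0.98 and 1.01. It had 0.08 in both Pcgf6 knockout libraries, where Cul3 had 0.07 and -0.07. The libraries thus fell in the same order by Cul3 as by the median gene of chromosome 1 among those of the Mga and L3mbtl2 knockouts, apart from the 2 libraries of the L3mbtl2 knockout, which differed little. Cul3 exceeded 61.6% of the tested genes of its chromosome in Mga knockout, 62.4% in L3mbtl2 knockout and 40.3% in Pcgf6 knockout. With each chromosome centred on its own median, an alternative chosen after seeing the data, the difference of Cul3 was 0.18 ± 0.07 in Mga knockout and 0.24 ± 0.08 in L3mbtl2 knockout. In that fit Mga and L3mbtl2 knockout differed by -0.06 (adjusted p = 0.607), L3mbtl2 and Pcgf6 knockout by 0.33 (adjusted p = 0.0222) and Mga and Pcgf6 knockout by 0.26 (adjusted p = 0.0379). Why the chromosome was high was not tested.

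**Figure D3:**
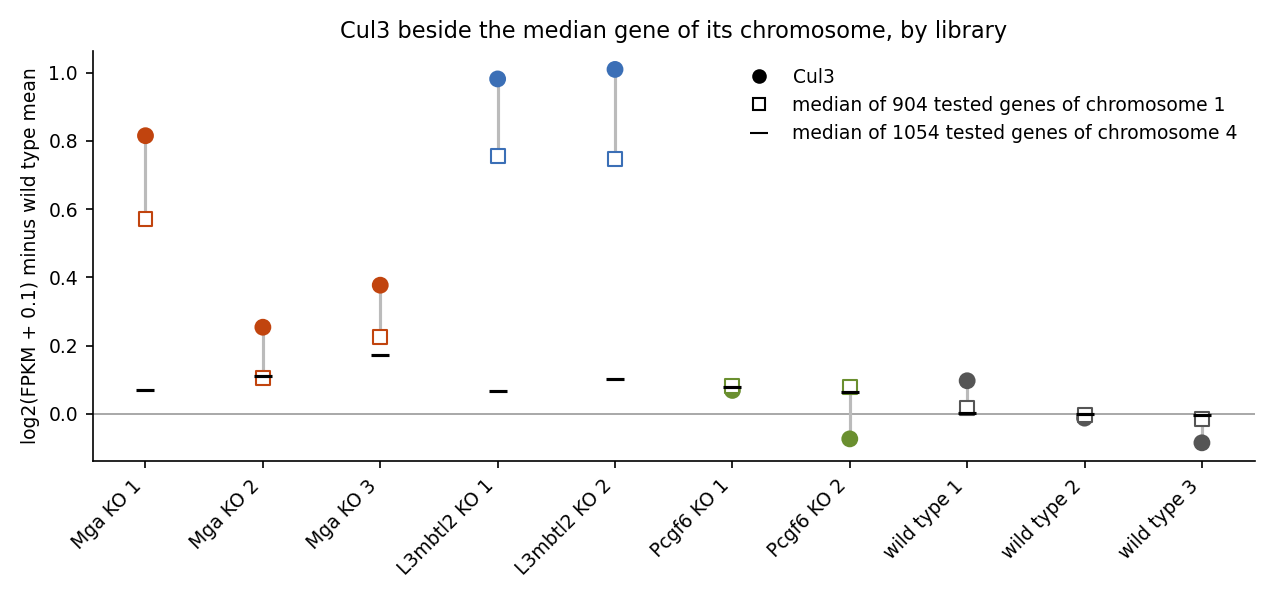
Log2(FPKM + 0.1) minus the wild type mean for Cul3 (circles) in each library, joined to the median of the tested genes of chromosome 1 (open squares), with the median of chromosome 4 (black bars). Cul3 and chromosome 1 were both high in L3mbtl2 knockout (0.98 and 1.01 against 0.76 and 0.75) and in Mga knockout replicate 1 (0.81 against 0.57).

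The rest of the ligase system was read from 4 lists with 84 tested genes. Of these 22 were higher and 14 lower in Mga knockout, which is 42.9% against 39.5% of all genes tested. In L3mbtl2 knockout 28 were higher and 11 lower, 46.4% against 40.0%, and in Pcgf6 knockout 6 were higher and 4 lower, 11.9% against 10.1%. These shares are near the background, so the lists changed about as often as genes in general. By direction, 22.8% of all genes were higher and 16.7% lower in Mga knockout, 23.4% higher and 16.7% lower in L3mbtl2 knockout, and 5.45% higher and 4.62% lower in Pcgf6 knockout. On chromosome 1 lay 7 of the 84 genes, of which 5 were higher in Mga knockout, 7 in L3mbtl2 knockout and 1 in Pcgf6 knockout. Of all 904 tested genes of that chromosome, 30.9% were higher in Mga knockout, 54.5% in L3mbtl2 knockout and 4.87% in Pcgf6 knockout. With each chromosome centred on its median the counts were 12 higher and 15 lower in Mga knockout, 21 higher and 14 lower in L3mbtl2 knockout, and 5 higher and 6 lower in Pcgf6 knockout. The counts also moved with single libraries, and so did those over all genes tested. In Mga knockout 4196 to 8674 of all genes were called when single libraries were left out. The share of all genes in each such fit is not given here, so these moves are not read as particular to the lists. Of the 84 genes, higher ones numbered 37 in Mga, 37 in L3mbtl2 and 15 in Pcgf6 knockout without the library labelled Mga knockout replicate 2. They numbered 11 in Mga knockout without wild type replicate 3, 11 in L3mbtl2 knockout without its replicate 1 and 0 in Pcgf6 knockout without its replicate 1.

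Among the 24 genes that load NEDD8 on cullins, remove it or exchange adaptors, 11 were higher and none lower in L3mbtl2 knockout, with a median log2 difference of 0.34 beside 0.13 for all genes. In Mga knockout 5 were higher and 2 lower (median 0.20 beside 0.10), and in Pcgf6 knockout 2 were higher and 1 lower (0.04 beside 0.04). The shares called were 29.2% in Mga knockout, 45.8% in L3mbtl2 knockout and 12.5% in Pcgf6 knockout, beside 39.5%, 40.0% and 10.1% of all genes. By direction, 45.8% were higher and none lower in L3mbtl2 knockout, beside 23.4% and 16.7% of all genes. Of the 11, 4 lie on chromosome 1, where 54.5% of the tested genes were higher. The 11 became 4 without either L3mbtl2 knockout library, 7 without any one wild type library and 14 when the library labelled Mga knockout replicate 2 was omitted. Centring the chromosomes gave 7 higher and 1 lower in L3mbtl2 knockout, 2 higher and 3 lower in Mga knockout, and 1 higher in Pcgf6 knockout. Ube2m, the NEDD8-conjugating enzyme that serves CUL3, was at 64.9 ± 1.86 FPKM in L3mbtl2 knockout (SD, n = 2) and 43.3 ± 0.982 FPKM in wild type (SD, n = 3), a rise of 0.58 ± 0.09 (limma, adjusted p = 0.00123), and it rose by 0.40 ± 0.09 in Pcgf6 knockout (adjusted p = 0.0225). Cops3, a subunit of the COP9 signalosome that strips NEDD8 from cullins, rose by 0.56 ± 0.10 in L3mbtl2 knockout (adjusted p = 0.0035). Its catalytic subunit Cops5 rose by 0.82 ± 0.16 there (adjusted p = 0.00461), and Cops7b by 0.94 ± 0.14 (adjusted p = 0.00115). Both of these lie on chromosome 1, and centred on it they differed by 0.07 (adjusted p = 0.572) and 0.19 (adjusted p = 0.167). The signalosome subunit Gps1 fell by 0.38 in Mga knockout (adjusted p = 0.00563) and by 0.49 in Pcgf6 knockout (adjusted p = 0.0112), and lies on chromosome 11, whose median was -0.23 in Mga and -0.31 in Pcgf6 knockout. Centred on it, Gps1 differed by -0.14 (adjusted p = 0.0663) and -0.19 (adjusted p = 0.0939). Rbx1, the RING partner, did not pass in any knockout, with differences of 0.03 in Mga (adjusted p = 0.869), -0.29 in L3mbtl2 (adjusted p = 0.113) and 0.26 in Pcgf6 knockout (adjusted p = 0.253).

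Of 7 other cullins, 28.6% passed in Mga knockout (39.5% of all genes), 42.9% in L3mbtl2 knockout (40.0% of all genes) and 14.3% in Pcgf6 knockout (10.1% of all genes). Cul2 and Cul5 were higher in Mga knockout (0.43 ± 0.07 and 0.38 ± 0.08) and in L3mbtl2 knockout (0.61 ± 0.08 and 0.90 ± 0.09). Cul5 was at 15.9 ± 0.693 FPKM in L3mbtl2 knockout and 8.46 ± 0.574 FPKM in wild type (limma, adjusted p = 0.000251). Cul7 was lower in L3mbtl2 knockout (-0.39 ± 0.13), and Cul2 alone was higher in Pcgf6 knockout (0.36 ± 0.08). Centred on their chromosomes, Cul2 and Cul5 did not pass in Mga knockout, nor Cul2 in Pcgf6 knockout.

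Of 33 tested BTB-Kelch adaptors, 10 were higher and 5 lower in Mga knockout, 12 higher and 4 lower in L3mbtl2 knockout, and 2 higher and 1 lower in Pcgf6 knockout, where centring gave 3 and 4. These are 45.5%, 48.5% and 9.09% of the adaptors, beside 39.5%, 40.0% and 10.1% of all genes. The higher count in Mga knockout was 16 without the library labelled Mga knockout replicate 2 and 5 or 6 without a wild type library, and that in L3mbtl2 knockout was 5 without either of its libraries. The median difference was 0.37 in Mga knockout beside 0.10 for all genes, 0.31 in L3mbtl2 knockout beside 0.13, and 0.02 in Pcgf6 knockout beside 0.04. None came near the level Klhl13 had in wild type. The most abundant in wild type was Enc1, with a mean of 28.02 FPKM there, and next to it came Ivns1abp, an adaptor on chromosome 1, at 39.5 ± 3.60 FPKM in Mga knockout, 44.1 ± 0.491 FPKM in L3mbtl2 knockout, 38.0 ± 0.298 FPKM in Pcgf6 knockout and 26.0 ± 1.41 FPKM in wild type (SD). It passed in all 3 (adjusted p = 0.000837, 0.000489 and 0.00842), and centred on chromosome 1 its difference in L3mbtl2 knockout was 0.01 (adjusted p = 0.95). Klhl20, which with CUL3 acts on DAPK and the trans-Golgi network in human cells, rose by 1.33 ± 0.20 in L3mbtl2 knockout (adjusted p = 0.00136), and Klhl12, the adaptor that sizes COPII coats, by 1.14 ± 0.12 (adjusted p = 0.000284). Both lie on chromosome 1 too, and centred on it they rose by 0.58 and 0.39. Klhl34, another X-linked member, was at 1.05 ± 0.497 FPKM in Mga knockout, 1.45 ± 0.0159 FPKM in L3mbtl2 knockout and 0.180 ± 0.0120 FPKM in wild type. Its differences in these knockouts were 1.92 ± 0.35 (adjusted p = 0.00339) and 2.46 ± 0.39 (adjusted p = 0.00181). Its wild type level was below the filter of 0.5 FPKM, so it was tested only because of knockout libraries. A rise was thus the direction that the filter favoured, and no comparison with the fall of Klhl13 is drawn from it. Kbtbd2, the adaptor that acts on the p85 subunit of PI3 kinase, fell by 1.33 ± 0.10 in Mga knockout (adjusted p = 4.36e-05), and Klhl24 by 1.09 ± 0.14 (adjusted p = 0.000619). Klhl36 fell by 0.89 ± 0.14 in L3mbtl2 knockout (adjusted p = 0.00159). In Pcgf6 knockout Klhl22, an adaptor of mitotic and amino acid signalling, rose by 0.49 ± 0.07 (adjusted p = 0.00595).

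Among 20 tested CUL3 adaptors of other classes, such as those of the KCTD and BTBD families, 5 were higher and 7 lower in Mga knockout, where centring gave 2 and 7, 3 higher and 6 lower in L3mbtl2 knockout, and 1 higher and 2 lower in Pcgf6 knockout. These are 60%, 45% and 15% of the adaptors, beside 39.5%, 40.0% and 10.1% of all genes, and with single libraries left out the lower counts ran from 4 to 9 in Mga knockout and from 1 to 10 in L3mbtl2 knockout. The median difference was -0.23 in Mga knockout, -0.12 in L3mbtl2 knockout and -0.09 in Pcgf6 knockout, below that of all genes in each. The differences of the single genes named next are not centred on their chromosomes. Kctd17, the adaptor that acts on trichoplein at cilia, was at 10.9 ± 2.33 FPKM in Mga knockout, 6.74 ± 0.351 FPKM in L3mbtl2 knockout and 20.04 ± 0.641 FPKM in wild type. It fell by 0.89 ± 0.14 in Mga knockout (adjusted p = 0.00176) and by 1.56 ± 0.16 in L3mbtl2 knockout (adjusted p = 0.000235). Tnfaip1, an adaptor for RhoA, fell by 0.81 ± 0.08 in Mga knockout (adjusted p = 0.000182) and by 0.65 ± 0.09 in Pcgf6 knockout (adjusted p = 0.00433). Btbd2 fell by 1.20 ± 0.21 in Mga knockout (adjusted p = 0.00314) and by 1.13 ± 0.24 in L3mbtl2 knockout (adjusted p = 0.0067). Its relative Btbd1 went the other way, with a rise of 0.87 ± 0.12 in Mga knockout (adjusted p = 0.000805) and of 0.61 ± 0.13 in L3mbtl2 knockout (adjusted p = 0.00674).

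**Figure D4:**
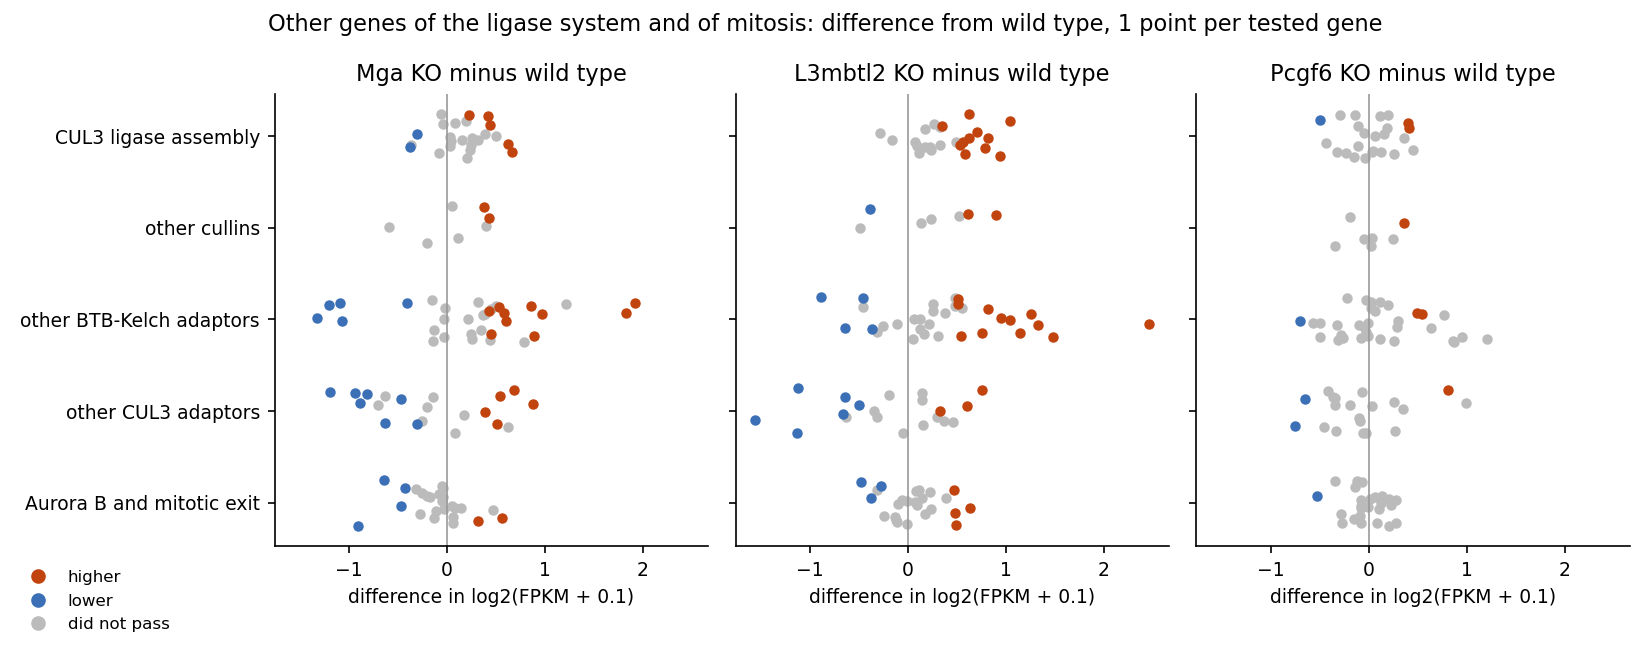
Difference from wild type in log2(FPKM + 0.1) of each tested gene (points) of 5 lists in the 3 knockouts, coloured by whether it passed as higher, as lower or not at all at an adjusted p of 0.05. In L3mbtl2 knockout 11 of 24 genes of ligase assembly were higher and none lower, beside 23.4% and 16.7% of all genes tested. In Pcgf6 knockout few genes of any list passed, where 10.1% of all genes tested did.

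Aurora B, the shared substrate of the 3 adaptors, and its mitotic partners were read as 1 more list of 25 genes, all tested. In Mga knockout 2 were higher and 4 lower, in L3mbtl2 knockout 4 were higher and 3 lower, and in Pcgf6 knockout 1 was lower. These are 24%, 28% and 4% of the list, beside 39.5%, 40.0% and 10.1% of all genes tested. Without the library labelled Mga knockout replicate 2, 11 were lower in Mga knockout, and over all single libraries left out 1 to 6 were higher in L3mbtl2 knockout. Centred on their chromosomes, 1 was higher and 8 lower in Mga knockout, 2 higher and 4 lower in L3mbtl2 knockout, and 1 lower in Pcgf6 knockout. Aurkb, which encodes Aurora B, was at 30.5 ± 1.99 FPKM in Mga knockout, 33.2 ± 2.17 FPKM in Pcgf6 knockout and 47.7 ± 0.738 FPKM in wild type. It fell by 0.64 ± 0.07 in Mga knockout (adjusted p = 0.000317) and by 0.52 ± 0.08 in Pcgf6 knockout (adjusted p = 0.00605), and its difference of -0.13 in L3mbtl2 knockout did not pass (adjusted p = 0.218). Aurkb lies on chromosome 11, and centred on it the differences were -0.40 in Mga (adjusted p = 0.0124) and -0.22 in Pcgf6 knockout (adjusted p = 0.264). Of the subunits that form the chromosomal passenger complex with it, Cdca8 (borealin) rose by 0.56 ± 0.09 in Mga knockout (adjusted p = 0.00226), and Birc5 (survivin) fell by 0.47 ± 0.11 there (adjusted p = 0.012). Birc5 too lies on chromosome 11, and centred on it its difference was -0.23 (adjusted p = 0.269). Mad2l1, of the spindle checkpoint, fell by 0.91 ± 0.11 in Mga knockout (adjusted p = 0.000461) and rose by 0.47 ± 0.12 in L3mbtl2 knockout (adjusted p = 0.0146), where centring gave 0.24 (adjusted p = 0.257). In L3mbtl2 knockout the mitotic kinesin Kif20a rose by 0.48 ± 0.07 (adjusted p = 0.00108), and the cytokinesis genes Racgap1 and Anln fell by 0.47 ± 0.13 (adjusted p = 0.0186) and 0.28 ± 0.08 (adjusted p = 0.0228). These RNA levels say nothing of protein, on which the ligase acts.

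The genes whose profile was nearest to that of Klhl13 over the 10 libraries were Nccrp1, Krt19, Ptprtos, Exoc3l2, Hpn and Tns4. Nearness is the root mean square distance of log2(FPKM + 0.1) values, each minus the wild type mean, and it was 0.78 for Nccrp1, 1.16 for Krt19, 1.49 for both Ptprtos and Exoc3l2, 1.53 for Hpn and 1.58 for Tns4. The gene nearest to Klhl9, Appl1, lay at 0.06. The distance is not scaled, so a gene that differs little from wild type lies near other such genes. The distances around Klhl13 and Klhl9 therefore do not compare how distinct their profiles are. Nccrp1, a protein with an F-box associated domain, was at 0.764, 2.51 and 1.495 FPKM in the Mga knockout libraries, 0.193 and 0.227 FPKM in L3mbtl2 knockout, 4.16 and 4.42 FPKM in Pcgf6 knockout and 21.4, 21.6 and 22.1 FPKM in wild type. It kept the order of Klhl13, lowest in L3mbtl2 knockout and highest in wild type. Krt19, a keratin of simple epithelia, was at 3.15, 1.76 and 3.70 FPKM in the Mga knockout libraries, 0.885 and 0.913 FPKM in L3mbtl2 knockout, 7.66 and 7.85 FPKM in Pcgf6 knockout and 28.9, 29.2 and 31.9 FPKM in wild type. Hpn, a membrane serine protease, differed in 1 respect: its mean in Pcgf6 knockout, 3.69 FPKM, was close to the 4.57 FPKM of wild type, while it was at 0.247 FPKM in Mga knockout and 0.114 FPKM in L3mbtl2 knockout. Without the library labelled Mga knockout replicate 2, 4 of the 6 genes were named again, and Nccrp1 came as near as 0.46. These genes lie on chromosomes 7, 11 and 2, and none is on X.

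**Figure D5:**
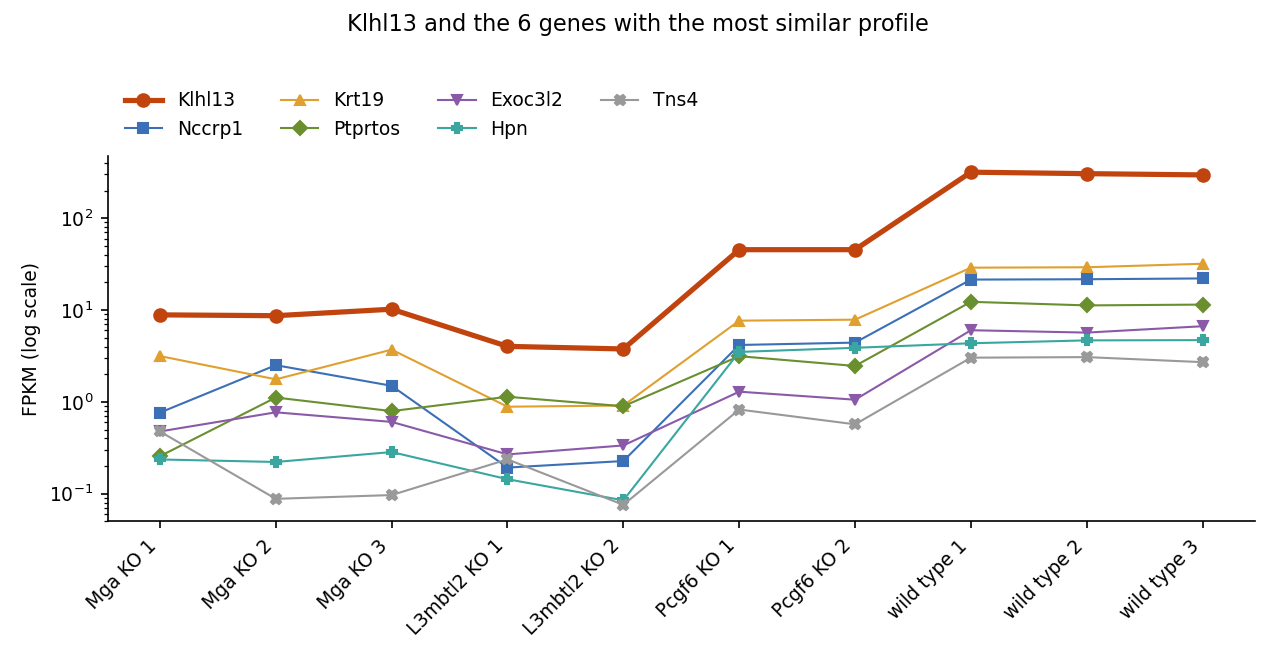
FPKM on a logarithmic axis of Klhl13 (thick line) and of the 6 genes with the nearest profile in each library. All 7 genes were highest in wild type, and Klhl13 lay above the other 6 in every library.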

How the data were processed

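Total RNA from 10 mouse embryonic stem cell libraries of 4 genotypes was sequenced. Per the submitters' processing notes, Bowtie2 2.2.3, TopHat2 2.0.12 and HTSeq 0.6.0 were used with GRCm38. The authors deposited FPKM values per gene; their scaling and annotation are not given in the sources used here. The members and lists were chosen with earlier results of these data known.

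Symbols came from GENCODE M21 (30250 of 30460 genes). All 10 libraries entered 1 limma 3.58.1 fit (R 4.3.3) of log2(FPKM + 0.1) with a mean-variance trend and genotype as the only term, over 15731 genes that reached 0.5 FPKM in 2 or more libraries. P-values were Benjamini-Hochberg adjusted over all of them, with a threshold of 0.05. A fold change on this scale understates that of low genes. The fit was tested on simulated data. Whole reads were recovered from FPKM steps at the annotated exon length for 77.9% of 28713 genes above 0 (within 0.005 of a read), and for 5872 more with a fitted length. Depth, recovered the same way, was 19.4 to 26.7 M reads.

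The rule for names took, per list, up to 4 genes with the smallest p in each comparison with wild type, the 6 genes nearest in profile to Klhl13 (3 for the others, predicted genes left out) and the neighbours of Klhl13. The genes nearest in profile to Cul3 are not reported here. Rbx1 and Enc1 were added after their values were seen. Alternatives were another pseudocount (1 FPKM), no filter, median-of-ratios and upper-quartile scaling, a fit of only the 2 groups compared, a replicate block, limma-voom on recovered reads and leaving out each library. Centring each chromosome with at least 50 tested genes was added after seeing the data.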

Additional observations from a re-analysis of the deposited data

Results flagged for a closer look

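Of the comparisons between knockouts, 5 passed the test of the difference between knockouts itself (limma, adjusted p under 0.05). Over all genes tested, 22.8% passed between Mga and L3mbtl2 knockout, 22.6% between Mga and Pcgf6 knockout and 30.5% between L3mbtl2 and Pcgf6 knockout. Klhl13 was chosen by its fall in these same knockout libraries, so its tests are not independent of that choice. For Klhl13 the difference was 1.22 on the log2 scale between Mga and L3mbtl2 knockout, -2.29 between Mga and Pcgf6 knockout and -3.51 between L3mbtl2 and Pcgf6 knockout. For Cul3 it was -0.51 between Mga and L3mbtl2 knockout and 0.997 between L3mbtl2 and Pcgf6 knockout. The -0.51 (adjusted p = 0.0413) did not pass in 9 of the 10 fits that left out a library, nor when centred on chromosomes (-0.062, adjusted p = 0.607). The Cul3 differences moved with the median of chromosome 1, which stood at 0.30 in Mga knockout, 0.75 in L3mbtl2 knockout and 0.08 in Pcgf6 knockout. What sets that median was not tested.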

How the results depend on the processing

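The direction of Klhl13 held in every setting tried. Its difference from wild type in Mga knockout was -4.91 with a pseudocount of 1 FPKM and -5.23 centred on chromosomes. In L3mbtl2 knockout it was -5.97 with that pseudocount, -6.35 with median-of-ratios scaling, -6.33 with upper-quartile scaling and -6.43 centred, and in Pcgf6 knockout -2.80 centred. Leaving out single libraries gave -5.11 to -4.99, -6.31 to -6.21 and -2.77 to -2.72 for Mga, L3mbtl2 and Pcgf6 knockout.

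Cul3 in Mga against L3mbtl2 knockout did not pass without the filter (-0.51, adjusted p = 0.0657), with only the 2 groups compared (-0.51, adjusted p = 0.197) or centred (-0.062, adjusted p = 0.607), and leaving out single libraries gave -0.68 to -0.40, with 9 of 10 fits not passing. In Mga against Pcgf6 knockout it passed when centred (0.26, adjusted p = 0.0379), and single libraries gave 0.32 to 0.60. For the same knockouts Klhl9 was at -0.0070 with upper-quartile scaling and -0.027 to 0.127 over single libraries, and Klhl21 at -0.51 to -0.20. Klhl21 passed only without Mga knockout replicate 1 (adjusted p = 0.0221).

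With only the 2 groups compared, genes called against wild type numbered 3994 in Mga, 10591 in L3mbtl2 and 6878 in Pcgf6 knockout, beside 6210, 6297 and 1584. Leaving out single libraries gave 4196 to 8674, 2942 to 8525 and 157 to 3960. Of the 84 ligase genes, that fit gave 13 higher in Mga knockout, 46 higher and 18 lower in L3mbtl2 knockout, and 22 higher and 20 lower in Pcgf6 knockout. Centring gave 12 higher in Mga knockout. Single libraries gave 11 to 37 higher and 9 to 19 lower in Mga knockout, 11 to 37 and 2 to 16 in L3mbtl2 knockout, and 0 to 15 and 0 to 12 in Pcgf6 knockout. The cause of these changes was not tested.

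Replicate numbers did not pair the libraries, as same-numbered libraries had correlations of deviations from -0.02 to 0.035. With the replicate block, Cul3 was at -0.47 (adjusted p = 0.0646) for Mga against L3mbtl2 and 0.53 (adjusted p = 0.0467) for Mga against Pcgf6 knockout. Under that block 992 genes were called in Pcgf6 knockout, and the ligase genes had 5 lower in L3mbtl2 and 3 higher in Pcgf6 knockout.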
